A study of Mus musculus with 2 samples.

Results

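Accessible chromatin in the intergenic stretch from 1 to 10 kb upstream of protein-coding genes was described in newborn mouse stomach. A region belonged to this class when DNase-seq peaks of both replicates overlapped there by at least 1 bp, and when the centre of the joined region met 3 conditions in the GENCODE M21 annotation of mm10. The centre lay outside every gene body, more than 1 kb from every annotated transcript start, and 1 to 10 kb upstream of the nearest protein-coding gene start. The rule was met by 5775 of 105543 shared regions (5.47%, 95% Wilson interval 5.34 to 5.61). These regions made up 18.8% (18.4 to 19.3) of the 30670 shared regions outside genes and promoters. All intervals given here are 95% intervals and cover counting error only, since regions of the same libraries are not replicates.

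DNase-seq maps DNA that the nuclease DNase I can cut in nuclei, and a peak is a short stretch where cuts pile up. The study comprised 1 group of 2 replicates of stomach tissue of the mouse strain B6NCrl at postnatal day 0, with the sex not recorded. Both replicates carry the same donor label, so their spread may not include the variation between unrelated animals. Whether they came from separate animals or from pools was not stated. No treatment, genotype or second tissue was included, and nothing was tested between groups. Replicate 1 had 139374 peaks on the 19 autosomes and the sex chromosomes, with a median deposited signal of 44 (2 to 147). Replicate 2 had 152779 peaks with a median signal of 52 (3 to 149). The signal is a whole number with no stated unit, and the sequencing depth behind it was not given in the sources used here, so signals were ranked only within their own list. The label does not say which parts of the stomach were taken. Stomach tissue can mix epithelium, muscle, connective tissue, nerves and blood cells. In such a tissue fewer accessible cells and less access per cell cannot be told apart.

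A gene's start is flanked by its promoter, where the transcription machinery assembles. Further upstream lie enhancers, which bind sequence-specific transcription factors and can act on a promoter from a distance, and insulator sites, many of which bind CTCF, a zinc finger protein that shapes chromatin loops. In the stomach, forkhead, GATA and SOX factors are known regulators of the endoderm and mesenchyme. AP-1, ETS and KLF/SP factors act in many cell types. The nearest gene names a region here and was not shown to be its target.

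The strongest regions holding 6 of the motifs searched give a view of what these sequences look like. Strength is the mean percentile of the signal in both lists. Sequences are from the RefSeq GRCm38.p6 genome (mm10), plus strand, 5′ to 3′, named for the nearest coding gene. The capitals in each mark, on either strand, the motif the region was chosen for: CTCF (by its consensus), AP-1 (TGANTCA), FOX (TGTTTAC or TATTTAC), the GATA family (AGATAAG or TGATAAG), ETS (CCGGAAG or AGGAAGT) and KLF/SP (GGGCGGG or GGGTGGG or GGGTGTG).
Stk11, chr10:80114636-80114785: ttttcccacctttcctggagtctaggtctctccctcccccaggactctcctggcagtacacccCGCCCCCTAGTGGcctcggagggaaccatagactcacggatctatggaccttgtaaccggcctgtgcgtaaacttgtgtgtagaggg
Zfp869, chr8:69716956-69717105: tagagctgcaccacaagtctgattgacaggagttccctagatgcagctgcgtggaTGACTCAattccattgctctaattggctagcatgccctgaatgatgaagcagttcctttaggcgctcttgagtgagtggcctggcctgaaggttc
Nr4a1, chr15:101246376-101246525: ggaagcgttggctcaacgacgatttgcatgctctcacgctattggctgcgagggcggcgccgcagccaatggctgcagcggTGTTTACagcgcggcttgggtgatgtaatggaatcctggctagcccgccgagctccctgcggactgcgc
Akap6, chr12:52692396-52692565: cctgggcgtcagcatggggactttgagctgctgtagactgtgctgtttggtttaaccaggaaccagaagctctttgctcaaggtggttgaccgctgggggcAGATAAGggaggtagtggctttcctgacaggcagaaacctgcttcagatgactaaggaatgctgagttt
Cpeb4, chr11:31870696-31870865: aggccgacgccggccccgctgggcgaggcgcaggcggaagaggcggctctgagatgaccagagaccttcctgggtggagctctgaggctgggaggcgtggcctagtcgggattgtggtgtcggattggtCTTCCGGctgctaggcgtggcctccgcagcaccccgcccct
Fbrs, chr7:127477916-127478145: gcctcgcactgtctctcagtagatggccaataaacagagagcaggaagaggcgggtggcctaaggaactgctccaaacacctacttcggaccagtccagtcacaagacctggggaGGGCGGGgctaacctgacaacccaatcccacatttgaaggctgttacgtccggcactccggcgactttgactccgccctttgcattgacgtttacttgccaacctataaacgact
The region upstream of Stk11 was the strongest with the CTCF consensus, and that of Zfp869 the strongest with AP-1. The Nr4a1 region was the strongest with a FOX match, the Akap6 region with GATA, the Cpeb4 region with ETS and the Fbrs region with KLF/SP. A match is a match of letters and does not show that a factor was bound.

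Strong regions upstream of genes in the stomach and signalling lists are shown for the same reason. Here capitals mark any match to the same motifs or to SOX (ACAATGG or ACAATAG).
Meis1, chr11:19020396-19020565: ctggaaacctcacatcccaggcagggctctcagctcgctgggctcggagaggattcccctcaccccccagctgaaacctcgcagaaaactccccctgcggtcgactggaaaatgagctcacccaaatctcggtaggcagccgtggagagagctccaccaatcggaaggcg
Hes1, chr16:30060496-30060665: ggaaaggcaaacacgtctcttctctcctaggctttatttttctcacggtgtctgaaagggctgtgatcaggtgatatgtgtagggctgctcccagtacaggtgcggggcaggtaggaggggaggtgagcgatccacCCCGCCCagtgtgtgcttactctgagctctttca
Id2, chr12:25098836-25099005: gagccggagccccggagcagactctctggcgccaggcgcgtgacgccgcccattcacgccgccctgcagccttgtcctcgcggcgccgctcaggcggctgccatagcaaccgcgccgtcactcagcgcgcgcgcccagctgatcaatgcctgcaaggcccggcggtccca
Krt19, chr11:100158116-100158285: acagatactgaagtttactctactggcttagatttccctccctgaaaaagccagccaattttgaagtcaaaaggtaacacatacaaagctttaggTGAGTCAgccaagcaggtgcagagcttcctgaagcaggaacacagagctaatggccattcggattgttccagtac
Id1, chr2:152735076-152735245: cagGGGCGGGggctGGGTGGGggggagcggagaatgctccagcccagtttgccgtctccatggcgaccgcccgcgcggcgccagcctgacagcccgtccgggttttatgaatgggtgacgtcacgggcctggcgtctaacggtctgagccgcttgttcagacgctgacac
Of these, the regions upstream of Meis1 and Id2 held no such match, and their peaks were in the top 10% of both lists.

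Accessible regions were most crowded close to the gene and thinned out with distance. The bin from 1 to 2 kb held 1154 regions, or 78.8 per Mb of intergenic sequence that met the same rule (exact Poisson interval 74.3 to 83.5). The bin from 2 to 3 kb held 58.4 per Mb (54.5 to 62.6). Between 5 and 8 kb the density lay between 46.1 and 46.9 per Mb, and at 9 to 10 kb it was 43.6 (39.6 to 47.9). Beyond the class, density upstream of coding genes was 40.8 per Mb at 10 to 20 kb, 35.8 at 20 to 50 kb, 26.7 at 50 to 100 kb and 9.10 beyond 100 kb. The decline therefore passed through the 10 kb limit without a step.

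**Figure D1:**
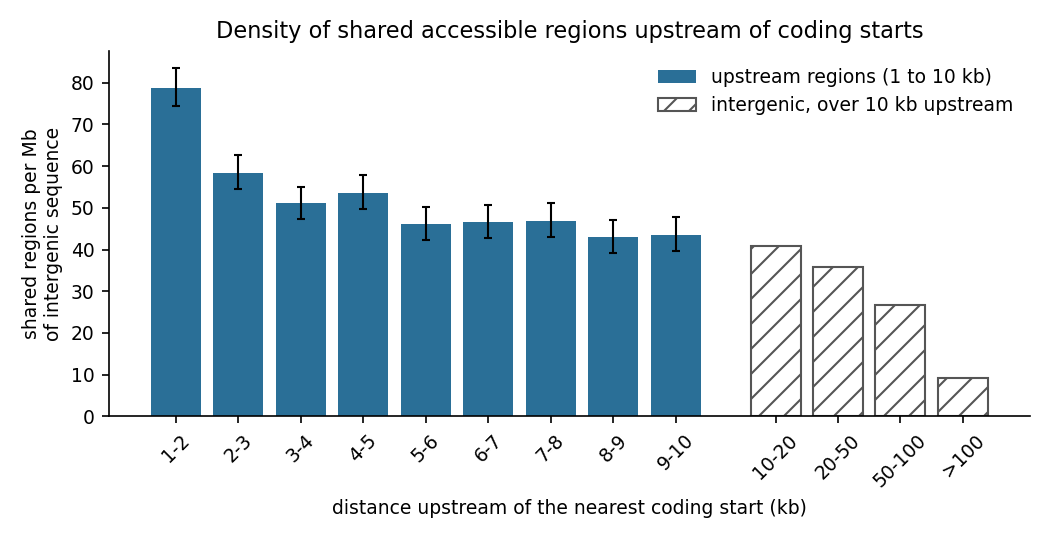
Shared regions per Mb of intergenic sequence (vertical axis) by distance upstream of the nearest coding start in kb (horizontal axis). Filled bars are the upstream class with 95% exact Poisson intervals, and hatched bars are intergenic regions further upstream, with wider bins. The first bin stands at 78.8 per Mb and the last bin of the class at 43.6 per Mb.

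Over the whole window the density was 53.2 per Mb (51.8 to 54.6) in 108.6 Mb, which is 4.10% of the genome. It was 208 per Mb (205 to 210) within 1 kb of starts, 37.2 in introns, and 19.1 (18.8 to 19.3) in intergenic sequence more than 10 kb from the nearest coding start. None of these intervals overlapped that of the upstream class. Regions between a pair of coding genes that point away from each other numbered 2659, at 58.0 per Mb (55.8 to 60.3). Those behind genes in other arrangements numbered 3116, at 49.7 per Mb (47.9 to 51.4). Of all upstream regions, 427 (7.39%) lay upstream and within 10 kb of both neighbours. The nearest start of any gene type belonged to the named coding gene for 84.7% of regions, and to a gene that is not protein-coding for 13.1%.

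The signal of the upstream class stood between that of promoters and that of distal regions. Its median was 53 in replicate 1 (quartiles 40 to 67) and 65 in replicate 2 (51 to 80). Those medians correspond to percentiles 64.7 and 67.4 of the lists of replicates 1 and 2. Promoter regions had median percentiles of 75 and 76.8, intronic regions 55.8 and 58.5, and intergenic regions beyond 10 kb 52.5 and 55.7. The order of the classes was the same in both lists, and their quartile ranges overlapped widely. Within the window the signal changed little with distance: bin medians spanned percentiles 61.9 to 66.0 in replicate 1 and 65.0 to 68.5 in replicate 2. So the near bins held more regions, not regions of clearly higher signal.

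**Figure D2:**
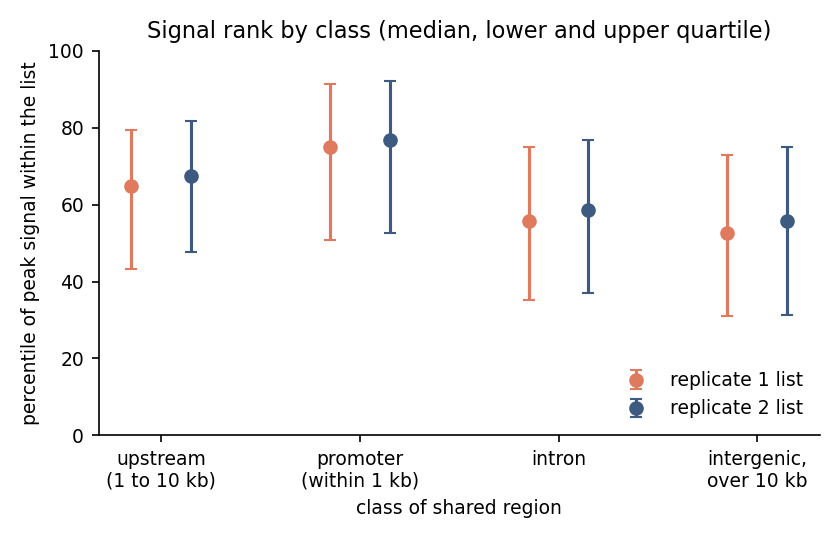
Percentile of the peak signal within the list of each replicate (vertical axis) for 4 classes of shared region (horizontal axis), with median points and lines from lower to upper quartile. The upstream class has medians of 64.7 and 67.4, below promoters at 75 and 76.8 and above intergenic regions over 10 kb away at 52.5 and 55.7.

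The top of the signal range showed the same ordering. Both peaks fell in the top 10% of their lists for 7.27% of upstream regions (6.63 to 7.97), against 25.6% of promoter regions, 4.65% of intronic and 4.48% of far intergenic regions. Over all shared regions the share was 11.4%, above that of the upstream class. The difference from promoters was -18.3 percentage points (Newcombe interval -19.1 to -17.5), and the difference from far intergenic regions was 2.79 points (2.10 to 3.54). Both peaks fell below the middle of their lists for 22.7% of upstream regions and 38.4% of far intergenic regions, a difference of -15.7 points (-17.0 to -14.5). Over all shared regions this share was 28.7%.

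Values at the borders of the rule were close. The 661 regions in the first 500 bp beyond 1 kb had median signals of 54 in replicate 1 and 66 in replicate 2, while those in the 500 bp below 1 kb upstream and outside gene bodies (1241 regions) had 51 and 63. At the far border, 205 regions in the last 500 bp had medians of 51 and 62, and 208 regions in the 500 bp beyond 10 kb had 53 and 65.5.

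The replicates ranked the upstream regions similarly. Across the 5775 regions Spearman's correlation of the signals was 0.882, beside 0.945 for promoter, 0.877 for intronic and 0.886 for far intergenic regions. These are descriptions across regions of the same libraries. The percentile of a region differed between lists by a median of 6.67 points, and by more than 25 points for 272 regions (4.71%). Nearly all regions (96.6%) joined exactly 1 peak from each replicate, and their median width was 170 bp.

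**Figure D3:**
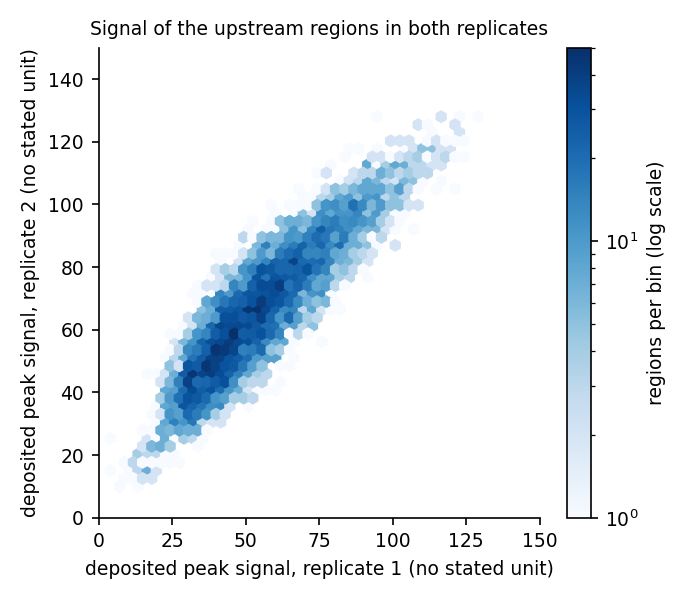
Deposited peak signal of the upstream regions in replicate 1 (horizontal axis) and replicate 2 (vertical axis), neither with a stated unit; shade gives the number of regions per hexagon on a log scale. The signals rose together, with a Spearman correlation of 0.882, and the axes are not on a shown common scale. Single regions differed between the lists by up to 48.5 percentile points.

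Because membership required a peak in both replicates, reproducibility was measured on the peaks before joining. In replicate 1, 81.9% of the 7235 peaks that met the position rule overlapped a peak of replicate 2 (81.0 to 82.8). The difference from promoter peaks was -1.56 points (-2.53 to -0.61), and the difference from far intergenic peaks was 8.72 points (7.70 to 9.71). In replicate 2, 72.6% of 8133 peaks had a partner (71.6 to 73.5), with differences of -1.31 points from promoters (-2.37 to -0.27) and 2.95 points from far intergenic peaks (1.86 to 4.02). Upstream peaks without a partner were weak, with a median signal of 29 in replicate 1, where those with a partner had 52. The corresponding medians in replicate 2 were 41 and 65. In replicate 1 the shared fraction was 26.2% for upstream peaks in the lowest 10% of the list and 100% (524 of 524) in the highest 10%. Among peaks of like rank both orders turned round in most steps. When each list was cut into 10 equal steps of signal rank, the shared fraction of upstream peaks was below that of far intergenic peaks in 8 of 10 steps in replicate 1 and in 10 of 10 in replicate 2. In the second step from the bottom, 45.5% (40.9 to 50.2) of upstream and 52.3% (50.7 to 53.9) of far intergenic peaks of replicate 1 were shared. Promoter peaks were shared more than upstream peaks only in this step (47.3%) and the lowest step (30.6%) of replicate 1. In step 5 from the bottom, 85.7% of upstream and 77.5% of promoter peaks of replicate 1 were shared. In replicate 2 upstream peaks had the higher share in every step, with 78.0% against 72.7% in step 6.

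Most upstream regions lay before a gene whose own start was also accessible. Some part of a shared region lay within 1 kb of the named gene's start for 76.2% of upstream regions (75 to 77.2). Counted by gene, this held for 74.5% (73.1 to 75.8) of the 4052 genes with an upstream region and for 58.7% (58.0 to 59.4) of coding genes without one. Genes without one include those with no intergenic sequence that met the rule. An upstream region centred just beyond 1 kb can reach into this span, and then counted itself. Within 250 bp of the start the shares by gene were 67.4% and 53.1%, and the share of upstream regions was 68.8% (67.6 to 70.0). In few cases was the upstream site a continuation of the promoter's accessible block. The deposited hotspot, a broader zone of enriched cutting, reached within 1 kb of the gene start for 5.33% of upstream regions in replicate 1 and 6.04% in replicate 2. Of those only 1 to 2 kb away, 26.1% lay in such a hotspot in replicate 1. Every upstream region overlapped a hotspot in both replicates, as did 100% of all 105543 shared regions. The hotspot significance stood at its ceiling of 100, on the −log10 q scale, in both replicates for 39.1% (37.9 to 40.4), beside 59.9% of promoter and 40.2% of far intergenic regions. Among the regions picked by name, values were either 100 or no higher than 6, so 100 is not read as a measured q. The difference from far intergenic regions, -1.04 points, had an interval that included 0 (-2.44 to 0.37).

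Another shared region lay within 1 kb of 29.5% of upstream regions, against 67.0% of promoter, 23.7% of intronic and 22.0% of far intergenic regions. The difference from far intergenic regions was 7.44 points (6.16 to 8.73). The median spacing to the next shared region was 2190 bp for the upstream class, 630 bp for promoters and 4980 bp for far intergenic regions.

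In base composition the upstream regions resembled distal sites more than promoters. Their median GC content over 150 bp was 50% (quartiles 45.3 to 54.7), against 59.3% in promoter regions, 48.7% in intronic and far intergenic regions, and 46.0% in 10052 peak-free windows placed 500 bp to either side. At least 5 CpG dinucleotides were present in 17.4% of upstream regions, 66.9% of promoter regions and 13.9% of far intergenic regions. The difference from far intergenic regions was 3.51 points (2.46 to 4.6). Repeat-masked bases made up 13.8% of the upstream windows on average, and 39.9% of the intergenic sequence that met the rule. Far intergenic regions had 13.7%.

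The CTCF consensus was found in upstream regions and hardly at all beside them. It was present in 7.69% of upstream regions (7.03 to 8.40; 444 regions), against 1.69% of promoter regions, 7.15% of far intergenic regions and 0.02% of the flanking windows. Written backwards, as a control for letter content, it was found in 0.00% of upstream regions. The AP-1 motif, bound by Jun and Fos dimers, was present in 13.0% (12.1 to 13.9), against 6.06% of promoter and 14.9% of far intergenic regions, and in 4.09% of flanking windows. Its share exceeded that of promoters by 6.91 points (6.03 to 7.83) and differed from far intergenic regions by -1.91 points (-2.87 to -0.92). Written backwards, AP-1 letters were rarer but kept this order, at 4.29% of upstream, 2.42% of promoter and 4.47% of far intergenic regions. The order of the classes alone is therefore not particular to the AP-1 motif.

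Motifs of the endodermal factor families were also between promoters and distal sites. FOX letters, recognised by forkhead proteins such as Foxa1 and Foxf1, were present in 6.89% of upstream regions, 3.68% of promoter and 9.16% of far intergenic regions. The difference from far intergenic regions was -2.27 points (-2.99 to -1.50), and flanking windows had 4.08%. GATA letters were present in 6.29% of upstream, 2.72% of promoter and 7.66% of far intergenic regions, with a difference from the last of -1.37 points (-2.06 to -0.64). Written backwards, FOX letters kept the same order, at 4.40% of upstream, 2.03% of promoter and 5.52% of far intergenic regions. Backwards GATA letters also kept it, at 1.82%, 1.11% and 2.23%. The order of these classes is therefore not particular to the motifs themselves. HNF4 letters (CAAAGTCCA or CAAAGGTCA), read by an epithelial nuclear receptor, were present in 1.51% of upstream regions and 0.34% of flanking windows. SOX letters showed no such contrast, with 3.26% in upstream regions, 3.48% in flanking windows and 3.05% when written backwards. Letters of MEIS (TGACAG), RUNX (TGTGGTT) and HOX/CDX (TTTATTG or TTTATGG) were no more frequent in upstream regions, at 8.94%, 3.95% and 3.31%, than in flanking windows, at 9.23%, 4.31% and 5.40%. Written backwards, MEIS and RUNX letters were less frequent in upstream regions, at 5.47% and 1.54%, and HOX/CDX letters stood at 3.27%.

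KLF/SP and ETS letters were more frequent in promoters. KLF/SP letters were present in 18.9% of upstream regions (17.9 to 19.9), against 34.9% of promoter, 15.7% of far intergenic and 9.42% of flanking windows. The differences were -16.0 points from promoters (-17.1 to -14.8) and 3.15 points from far intergenic regions (2.05 to 4.27). ETS letters were present in 10.2% of upstream, 13.0% of promoter and 9.35% of far intergenic regions. E-box letters (CAGCTG or CACCTG), read by basic helix-loop-helix proteins, were the most frequent of the 23 motifs searched, at 24.5%, with 20.6% in promoter regions and 16.8% in flanking windows. Their difference from promoters was 3.90 points (2.72 to 5.10). None of the 23 motifs was found in 1509 upstream regions (26.1%), and 3 or more were found in 572 (9.90%). The intervals were not adjusted for the number of motifs.

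**Figure D4:**
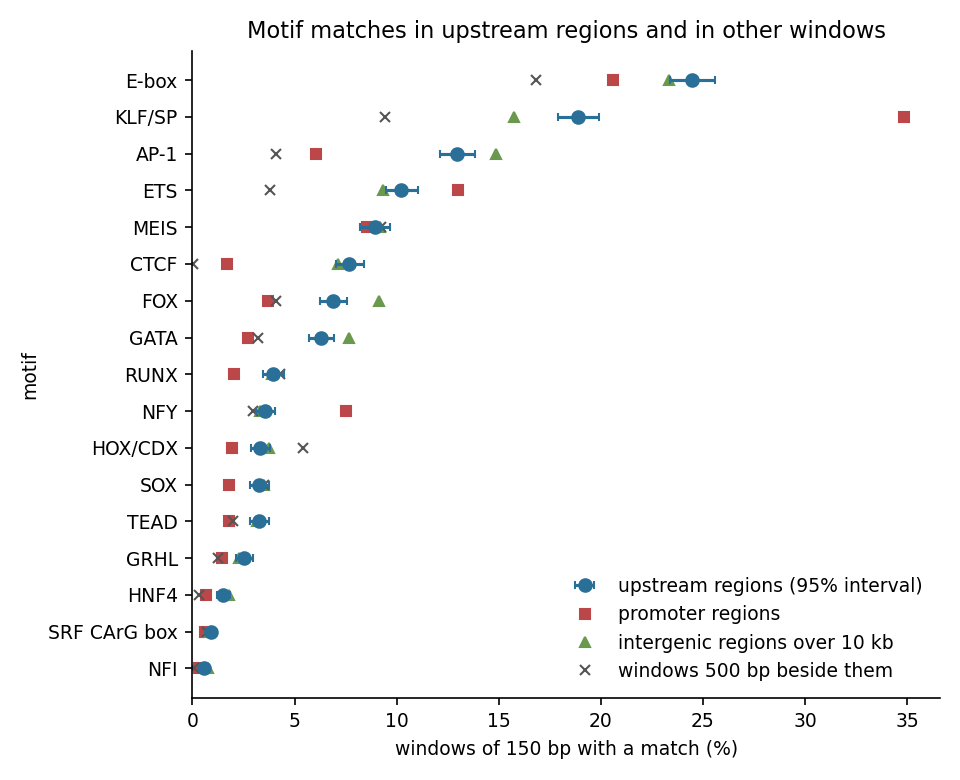
Percentage of 150 bp windows with a match (horizontal axis) for motifs (vertical axis): circles are upstream regions with 95% Wilson intervals, squares promoters, triangles intergenic regions over 10 kb away and crosses windows 500 bp beside the upstream regions. CTCF stands at 7.69% against 0.02% beside the regions, and KLF/SP lies between far intergenic regions at 15.7% and promoters at 34.9%.

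The share of several motifs differed with CpG content. Among the 1004 upstream regions with at least 5 CpG, AP-1 letters were present in 7.87%, and among the other 4771 in 14%. FOX letters had 4.08% and 7.48% in the same split, GATA letters 3.29% and 6.92%, and KLF/SP letters 26.9% and 17.2%. CpG was counted in the windows searched for motifs, and the KLF/SP letters GGGCGGG hold a CpG themselves. Backwards letters were not counted for this split, so it does not separate the motifs from letter content. CpG-rich upstream regions also ranked higher in signal, with median percentiles of 74.0 and 77.7 in the lists of replicates 1 and 2, where CpG-poor ones had 61.9 and 65.0. By distance, only AP-1 and CTCF of the 23 motifs had intervals that left out 0, with no adjustment for their number. Regions 1 to 3 kb from the gene held AP-1 in 11.8% and CTCF in 6.25%. Regions 7 to 10 kb away held them in 14.3% and 8.38%. Near minus far, the differences were -2.47 points for AP-1 (-4.84 to -0.17) and -2.13 points for CTCF (-4.00 to -0.36).

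The rule used GENCODE starts, and a second annotation adds others. RefSeq places a transcript start within 1 kb of 473 upstream regions (8.19%, 7.51 to 8.93), and of 3.84% of far intergenic regions. At least 5 CpG were present in 31.9% of these 473 regions and in 16.1% of the other 5302. Their median distance to the coding start was 2232 bp, against 4475 bp for the others. The share near a RefSeq start was 13.8% among the 420 upstream regions in the top 10% of both lists and 7.75% among the rest, a difference of 6.06 points (2.99 to 9.75). For CpG-rich sequence the shares were 39.5% and 15.6%, a difference of 23.9 points (19.2 to 28.7).

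The strongest regions of the class belonged to genes of diverse function, and 6 of the first 12 had a RefSeq start within 1 kb. The first lay 6307 bp upstream of Zfp869, a zinc finger gene, with signals of 129 in replicate 1 and 127 in replicate 2, and only 37 bp from a RefSeq start. The Fbrs region followed at 1168 bp, with 124 and 128. A pair of the 12 lay upstream of Kdm6b, which encodes a demethylase of histone H3 lysine 27. These were at 5296 bp (signals 122 and 124) and 3976 bp (118 and 121), at 780 and 489 bp from RefSeq starts. The Fbxo11 region was 1010 bp upstream (112 and 127) and the Tle2 region, before a Groucho-family corepressor gene, 2830 bp upstream (123 and 120). These were also near RefSeq starts.

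The other 6 of the 12 had no RefSeq start within 1 kb. The region 1056 bp before Foxo3, a forkhead factor gene, had signals of 116 and 128. That before Cln6, a gene of the endoplasmic reticulum, lay 9814 bp away with 122 and 125. Trappc9, of a vesicle tethering complex, had its region at 6417 bp (122 and 126). The others lay upstream of Sertad1 (5179 bp; 117 and 128), Cables2 (2555 bp; 122 and 123) and Msl1, part of a histone acetyltransferase complex (6475 bp; 120 and 120). Of the 12 regions, 8 held at least 5 CpG.

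At least 1 upstream region was found for 4052 of 21938 protein-coding genes, or 18.5% (18 to 19). Among the 16298 genes that have any intergenic sequence meeting the rule, this was 24.9%. A single region was found for 2850 genes and at least 2 for 1202 genes. At least 5 were found for 38 genes. Tnrc18 had most, with 9 regions between 1149 and 5779 bp, and signals of 58 to 101 in replicate 1 and 62 to 104 in replicate 2. Of these, 7 lay within 1 kb of a RefSeq start. Irf2bpl had 8, the strongest 9873 bp away with 115 and 107. Mef2d, a muscle and nerve transcription factor gene, also had 8, led by a region at 3921 bp with 100 and 119.

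Hes1, a repressor that Notch signalling switches on, had 7 upstream regions. They lay at 1073, 1643, 3803, 4853, 7253, 8263 and 8763 bp. Their signals in that order were 66, 58, 110, 68, 55, 69 and 57 in replicate 1, and 78, 59, 112, 82, 59, 72 and 66 in replicate 2. The region at 3803 bp, printed above, was the highest in both. Junb, an AP-1 subunit gene, had 6 regions with signals of 84, 103, 110, 61, 67 and 63 in replicate 1 and 102, 102, 99, 73, 85 and 69 in replicate 2, from 1063 to 5623 bp. Its 3 regions nearest the gene, at 1063, 1453 and 1653 bp, were the highest in both replicates.

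Krt19, a keratin of simple epithelium, had 6 regions between 1846 and 9536 bp. The farthest was the strongest, with 101 in replicate 1 and 112 in replicate 2, while the other 5 had 53 to 64 in replicate 1 and 60 to 93 in replicate 2. Aurkb, a mitotic kinase gene, had 7 regions of 50 to 72 in replicate 1 and 65 to 86 in replicate 2. Psma3, a proteasome subunit gene, had 7, which ran from 12 and 18 at 2650 bp to 93 and 111 at 5930 bp. Of the 7 Psma3 regions, 5 lay within 1 kb of a RefSeq start, the nearest at 3 bp and the strongest region at 592 bp. The adaptor genes Cd2ap and Shf had 6 regions each, with strongest signals of 98 and 112 at 7896 bp for Cd2ap and 98 and 100 at 8389 bp for Shf.

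**Figure D5:**
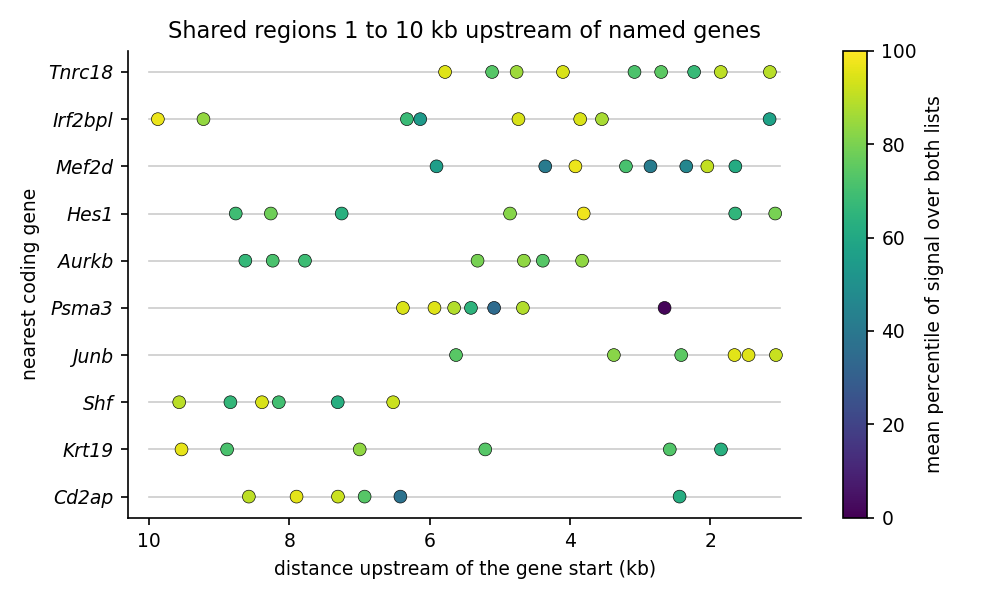
Distance of upstream regions from the start of the nearest coding gene in kb (horizontal axis, gene start to the right) for named genes (vertical axis); each point is 1 region and its colour the mean percentile of its signal over both lists. The 7 regions of Hes1 spread over most of the window, while the 9 of Tnrc18 lie between 1149 and 5779 bp.

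Genes of 15 lists were then looked up; the lists were drawn up with earlier results of these data known, and their counts carry no test. Gastric glandular products had an upstream region for 12 of 28 genes (42.9%), beside 18.5% of all coding genes. Intergenic sequence meeting the rule was present for 26 of the 28. Among all coding genes with such sequence, 24.9% had a region. These shares of all genes apply to every list that follows, and list shares from 18.8% to 26.7% lie near them. Muc6, a gland mucin, had 4 regions, the strongest at 3322 bp with 68 in replicate 1 and 70 in replicate 2. Capn8, a calpain of the stomach, had 3, led by 56 and 68 at 2156 bp. Psca, a surface antigen gene, had 2, led by 73 and 80 at 2578 bp. The other genes of this list with a region were Tff1, Gkn1, Gkn3, Muc5ac, Atp4a, Slc26a9, Kcne2, Capn9 and Vsig1.

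General epithelial genes had a region for 10 of 20, or 50%. Besides Krt19, the keratin gene Krt18 had 3 regions, the strongest at 4089 bp with 92 and 99, and the tight junction gene Cldn4 had 3, the strongest at 4327 bp with 85 and 95. Gastric epithelial transcription factors had one for 5 of 24 (20.8%). The forkhead gene Foxa1 had 3, with signals in replicates 1 and 2 of 82 and 109 at 1615 bp, 53 and 48 at 4845 bp, and 34 and 40 at 5405 bp. The nuclear receptor gene Hnf4g had 2, led by 73 and 68 at 4349 bp. Gata5 and Klf4 had a region each. Squamous genes of the forestomach, the keratinised part of the mouse stomach, had one for 5 of 19 (26.3%). Krt15 led with 3 regions (strongest 76 and 65 at 3073 bp), and the basal keratin gene Krt5 had its strongest at 1033 bp with 60 and 66. Krt1 had 51 and 57 at 6427 bp.

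Stromal and muscle genes followed. Visceral smooth muscle genes had a region for 5 of 20 (25%). Smtn had 3 (strongest 57 and 67 at 5569 bp), the actin-binding gene Tagln had 80 and 98 at 1063 bp, and the calponin gene Cnn1 had 75 and 91 at 3015 bp. Gut mesenchyme genes had one for 6 of 31 (19.4%). Barx1, a homeobox gene of stomach mesenchyme, had 3 regions, with 34 and 55 at 2937 bp, 57 and 91 at 7197 bp, and 63 and 75 at 9007 bp in replicates 1 and 2. The homeobox gene Meis1 had 3, led by 105 and 117 at 1496 bp, and the collagen gene Col1a1 had 2, led by 94 and 102 at 7223 bp.

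Signalling ligands and targets of foregut development had a region for 15 of 33 genes (45.5%), with 30 regions in all. They included the BMP ligands Bmp2, Bmp4 and Bmp7, the BMP targets Id1, Id2 and Id3, and Wnt and Notch genes such as Axin2, Lgr5, Jag1 and Hes1. Some were weak: the strongest regions of Bmp4 (41 and 41), Jag1 (34 and 34) and Axin2 (34 and 49) ranked below the middle of both lists. No hedgehog gene of the list, such as Shh, Ptch1 or Gli1, had a region. These genes are few, and most coding genes have none. Intergenic sequence meeting the rule was present for 27 of the 33 genes, so some genes of the list could not have a region. Id1 had 4 regions, at 1090 bp with 106 and 104, at 6410 bp with 73 and 81, and at 7850 and 9170 bp with 60 and 71 each. Id2 had 2, led by 99 and 121 at 1781 bp.

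The lists for rarer cells of the stomach were short. A place in a list does not show which cells of the stomach use the gene, and some list genes encode ligands that act on other cells. In the list for interstitial cells of Cajal, the pacemakers of gut muscle, 4 of 8 genes had a region (50%). The chloride channel gene Ano1 had 2 regions, the stronger with 66 and 66 at 3967 bp. The ligand gene Kitl had 1, with 85 and 99 at 1279 bp. In the list for enteric neurons and glia, 2 of 16 genes had one (12.5%), among them the ligand gene Edn3 (75 and 74 at 7328 bp). Enteroendocrine genes had one for 4 of 16 (25%). The hormone gene Sst had 2, the stronger with 63 and 79 at 7473 bp. Tph1 of serotonin synthesis also had 2, the stronger with 25 and 45 at 6064 bp. Chga (54 and 66 at 4258 bp) and the ghrelin gene Ghrl (56 and 63 at 1451 bp) had 1 each. Endothelial genes had one for 3 of 16 (18.8%). These were Tal1 (41 and 48 at 3615 bp), Sox18 (46 and 62 at 4001 bp) and the VEGF receptor gene Kdr (30 and 37 at 1513 bp).

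Genes of other cells and organs were looked up too, and their shares do not check the tissue label. The immune and hepatocyte shares were no lower than those of smooth muscle (25%) and mesenchyme genes (19.4%). They were lower than the share of gastric glandular products (42.9%), which lay near the housekeeping share. Immune genes had a region for 4 of 16 (25%), with Itgam at 95 and 101, Cx3cr1 at 59 and 74 and Csf1r at 54 and 66. Hepatocyte genes had one for 4 of 15 (26.7%), among them Ambp (95 and 98 at 2322 bp), Cps1 (88 and 92 at 9495 bp) and the prothrombin gene F2 (53 and 67 at 2617 bp). Brain genes had one for 1 of 16 (6.25%), Slc17a7 with 69 and 86 at 1818 bp. Housekeeping genes had one for 11 of 25 (44.0%), with 23 regions. Rab7 had 5, led by 66 and 92 at 2741 bp, and Actb had 4, led by 86 and 97 at 3167 bp.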

How the data were processed

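DNase-seq peaks and hotspots of 2 replicates of newborn mouse stomach were used on the 19 autosomes, X and Y, in mm10. Per the deposited file lists, each file came from the filtered alignments of its own replicate; the aligner, peak caller, thresholds and read depth were left unstated by the sources used here. The deposited peak signal is a whole number with no stated unit and was converted to a percentile within its list. The authors' hotspot files give a q-value as −log10, with a ceiling of 100; their deposited score column was not used.

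Overlapping peaks of the 2 replicates (at least 1 bp) were joined with bedtools 2.31.1, and centres were classed by GENCODE M21. Density used positions on a 100 bp grid that met the same rule. Motifs were searched in 150 bp around the centre on both strands in the RefSeq GRCm38.p6 genome. RefSeq supplied the second set of starts. Shares have Wilson, differences Newcombe and densities exact Poisson intervals at 95%. Python 3.11.15, pandas 2.3.3, scipy 1.17.1 and pysam 0.24.0 were used, and the counting steps were tested on simulated data. Of 32 mesenchyme symbols 31 were found in the annotation.

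The regions and gene lists were chosen with earlier results of these data known. Named regions were the 12 highest by mean percentile, those of the 10 genes with most regions, the strongest region of up to 3 genes with most regions per list, and the strongest with each of 7 motifs; a few of these are not reported here. All regions of Foxa1, Barx1 and Id1, and that of Ghrl, were given in addition, chosen after their values were seen. With 1 group, no comparison between groups was made.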

Additional observations from a re-analysis of the deposited data

How the results depend on the processing

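No paired analysis was possible because the study has 1 group. Of the 5775 upstream regions, 5597 remained in number when the replicates' peaks had to overlap by 50% of each, and 5648 when transcript starts replaced gene starts. Keeping the peaks above the median signal of each list left 3655 regions, 12.3% of coding genes with a region, median percentiles of 76.0 and 78.6 in the lists of replicates 1 and 2, and a median GC content of 50.7%. Stopping at 5 kb left 3316 regions and 12% of genes. Leaving out the regions near RefSeq starts, an alternative chosen after seeing the data, left 5302 regions and 17.4% of genes.

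With 1 replicate left out, the number of regions ranged from 7235 to 8133, the share of genes from 21.3% to 22.7%, GC from 49.3% to 50%, overlap with hotspots of both replicates from 74.1% to 83.2%, and the share with an accessible gene start from 76.7% to 78.8%. The median percentile was then 55.8 for replicate 1 alone and 57.1 for replicate 2 alone. A window of doubled width gave a GC content of 48.7%. Requiring 50% of the region in a hotspot gave 93.8%, and a 250 bp promoter window gave 68.8%. Of 184 recomputed motif shares 162 stayed within the interval of the main value, and 15 moved by over 1.5 times, mostly with windows of doubled width. The unknown depth limits how weak signals can be read.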

Other observations

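Few of the upstream regions coincide with enhancers that RefSeq records from experiments: 19 of 5775 (0.329%), beside 404 of all 105543 shared regions (0.383%). They include recorded elements of genes that are used in other organs. The Afp region, before the fetal liver gene for alpha-fetoprotein, lies 2246 bp upstream with signals of 47 in replicate 1 and 57 in replicate 2. A region before Hbb-y, an embryonic globin gene, lies 7875 bp upstream with 38 and 58, and overlaps the recorded element HS2 of the beta-globin locus. The Ren1 region, before the renin gene of the kidney, lies 2489 bp upstream with 46 and 73.

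Upstream regions made up 7.76% of the shared regions of chromosome 11, the highest share, and 3.70% of those of chromosome X, the lowest.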
